A study of Macaca mulatta with 25 samples.

Results

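The combined treatment of testosterone and a Western-style diet (TWSD) was compared with control treatment (C) in rhesus macaque blastocysts, across all genes of a count table. The members are the 2 libraries that the labels call TWSD (numbered 2 and 3) of 25 libraries in all, and they were set against the 5 control libraries (C 1, 2, 8, 11 and 12). A further 10 libraries of testosterone alone (T) and 8 of the diet alone (WSD) entered the model and serve as a second comparison. Mothers of the TWSD embryos carried testosterone implants and ate a diet with 36% fat, 46% carbohydrate and 18% protein. Mothers of T embryos had the same implants, set to raise circulating testosterone 3 to 5 fold, with chow of 15% fat, 59% carbohydrate and 26% protein. Mothers of WSD embryos had the high-fat diet, and those of C embryos had cholesterol implants and chow. All treatments began at about 2.5 years of age, before puberty, in 10 females per group and ran for 5 to 6 years. Of the females treated both ways 3 could be stimulated with gonadotropins for egg collection, of T females 7, of WSD females 6 and of C females 10. All embryos shared the rest of the handling: fertilisation in vitro with semen of 4 males, culture to the blastocyst stage for at most 8 days, and removal of the zona pellucida before freezing.

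A blastocyst has an outer epithelium, the trophectoderm, that goes on to form the placenta, and an inner cell mass that sorts into epiblast (the later body) and primitive endoderm (the later yolk sac). Its cells are dividing, and genes of replication and mitosis are expressed throughout. Damage to DNA and other stress can switch on CDKN1A, a brake on the cell cycle, and death receptors. RELA is the main activating subunit of NF-kB, which drives inflammatory and survival genes. Gene roles given below are those known from human and mouse.

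The labels do not say which mother, father or collection day a library came from, or whether a library is 1 embryo. P-values therefore measure the spread between these libraries, which may share parents. Total counts were 20381869 in TWSD 2 and 26710010 in TWSD 3, against 15272016 to 27659266 in C. At equal depth (15272016 counts) 15088 and 14930 genes were detected in TWSD 2 and 3, against 16107 to 19185 in C. The exact permutation test over 21 splits gave its smallest possible p, 0.0476 (two-sided, adjusted over 3 library measures p = 0.0714). TWSD 2 stood apart in its low end: 9491 genes reached 10 counts there, against 12737 in TWSD 3 and 12786 to 14240 in C. The log2 CPM values of the TWSD libraries correlated at r = 0.74 over the genes tested, as a description over genes that are no replicates. Pairs of controls ran from r = 0.60 (C 1 and C 12) to 0.80 (C 1 and C 2), and TWSD 3 with C 2 was at r = 0.84.

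Several libraries differed in Y-linked, placental or stromal genes. Among 8 Y-linked genes tested, DDX3Y was at 0.709 and 291 CPM (counts scaled to equal library size, with TMM factors) in TWSD 2 and 3, against 182, 106, 189.8, 112 and 0.209 CPM in C 1, 2, 8, 11 and 12. TWSD 2 and C 12 lack this signal. CGA, the alpha subunit of the placental hormone chorionic gonadotropin, was at 0.322 and 0.108 CPM in TWSD 2 and 3, against 1.23, 0.325, 3025, 2400.3 and 1073 CPM in C 1, 2, 8, 11 and 12. C 11 also held the stromal gene COL3A1 at 8644 CPM, against 0.193 and 0.395 CPM in TWSD 2 and 3 and at most 0.61 CPM in the other controls. C 8, C 11 and C 12 thus stand apart from C 1 and C 2. Without these 3, 31 of the 39 genes that passed and are named by rule miss the threshold. Their adjusted p without the 3 is given for each gene group below. The part of sex, placental genes or stromal genes in the results below was not tested.

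In the TWSD embryos the genes of DNA replication, mitosis, nuclear transport, tRNA charging and protein folding that passed the test were higher than in C, and RELA, CDKN1A and the death receptors TNFRSF10A and TNFRSF10B were lower. At an adjusted p of 0.05 in the edgeR model (quasi-likelihood F-test, Benjamini-Hochberg), 167 of 13934 genes passed (1.2%). Of these 120 were higher in TWSD (0.861% of genes tested) and 47 lower (0.337%). Both libraries deviated in the tested direction in 117 of the 120 higher genes and in 47 of the 47 lower genes, against 57.7% of all genes tested. The genes were called on these same libraries, so such agreement, and the kept directions below, are partly built in. Over all genes tested both TWSD libraries lay above every control in 737 genes (5.29%) and below every control in 939 (6.74%). The 2 libraries contributed unequally to the rises. TWSD 2 was farther from the control mean than TWSD 3 in 118 of the 120 higher genes. The median log2 deviation there was 2.31 in TWSD 2 and 0.96 in TWSD 3. TWSD 2 was farther in 23 of the 47 lower genes, of which 10 with 0 counts in both libraries are ties. Over all 13934 genes tested it was farther in 9305, with 584 such ties. The number of calls rests on TWSD 2 and on a spread pooled over all 25 libraries. Without TWSD 2, and with the TWSD and C libraries fitted alone, 0 genes passed in edgeR, with 980 and 885 genes at an unadjusted p under 0.05. The full model had 1207 such genes higher (8.66%) and 1855 lower (13.3%), 3062 in all. DESeq2 called 427 of the 13934 genes higher and 1568 lower. The list counts below are to be read beside these shares. Without TWSD 2, 116 of the 120 and 47 of the 47 kept their direction. The size of the rises shrank, to a median log2 change of 0.82 without TWSD 2, against 1.72 with it. The fitted median of the falls did not shrink, at -7.36 without TWSD 2 and -6.89 with it, although their calls were lost too. Both medians include 10 genes with 0 counts in both TWSD libraries, whose size the counts do not fix. With both libraries and these 10 at their counting limit the median was -6.31. Without C 8, C 11 and C 12 the higher genes numbered 10 and the lower 8, with 7 and 6 of them among the 120 and 47. Each of the 120 and the 47 kept its direction there. Left out singly, TWSD 3 gave 897 higher and 1887 lower genes, C 1 409 and 271, C 2 249 and 139, C 12 242 and 93, and C 11 68 higher.

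**Figure D1:**
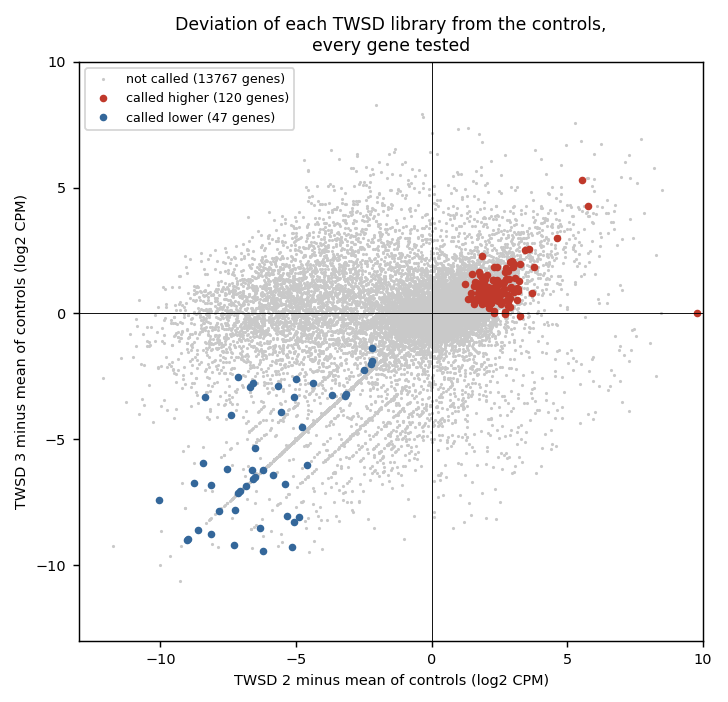
Each point is 1 of the 13934 genes tested, with the log2 CPM of TWSD 2 (horizontal axis) and TWSD 3 (vertical axis) minus the mean of the 5 controls. The 120 genes called higher lie at a median of 2.31 for TWSD 2 and 0.96 for TWSD 3, and the 47 called lower lie in the quadrant where both libraries are below the controls.

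The 10 leading rises included 4 genes of replication and chromosome segregation, POLA1, MCM6, CKAP5 and SMC2, beside genes of other roles. POLA1, the catalytic subunit of DNA polymerase alpha that starts new DNA strands, was at 334 and 87.1 CPM in TWSD 2 and 3, against 25.7, 25.6, 46.8, 20.1 and 14.4 CPM in C 1, 2, 8, 11 and 12. Both TWSD values lay above every control, TWSD 2 far more so (log2 change 2.99 ± 0.46, SE, adjusted p = 0.00343). CNOT8, a deadenylase of the CCR4-NOT complex that shortens mRNA tails, was at 281 and 166 CPM in TWSD 2 and 3, against 97.6, 69.8, 96.5, 95.5 and 68.6 CPM in C 1, 2, 8, 11 and 12. The 5 controls lay close together and both TWSD libraries above them (log2 change 1.39 ± 0.24, adjusted p = 0.0104). SET, a histone chaperone and inhibitor of the phosphatase PP2A, was at 1003 and 405 CPM in TWSD 2 and 3, against 190.5, 303, 229.6, 156 and 119 CPM in C 1, 2, 8, 11 and 12, again without overlap (log2 change 1.82 ± 0.33, adjusted p = 0.0131). HSPA4, an HSP70-related co-chaperone, CKAP5, a microtubule polymerase of the spindle, MCM6, a subunit of the replicative helicase, RARS1, the arginyl-tRNA synthetase, SMC2, a condensin subunit, USP10, a deubiquitinase, and CTNNA1, the alpha-catenin of cell junctions, completed the 10 rises with the smallest p. All 7 had both TWSD libraries above every control. Their log2 changes ran from 1.31 ± 0.25 for USP10 to 2.09 ± 0.39 for MCM6, with adjusted p from 0.0123 to 0.0177. CTNNA1 shows the gap between the TWSD libraries, with 1220.5 CPM in TWSD 2 and 357 CPM in TWSD 3, against 177 to 275 CPM in C. Of these 10, POLA1 and CNOT8 still passed without C 8, C 11 and C 12 (adjusted p = 0.0393 and 0.0363), and the other 8 had adjusted p from 0.0519 to 0.0865 there.

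The leading falls were larger, and several of these genes had no count in either TWSD library. MOSPD2, a protein that tethers membranes to the endoplasmic reticulum, had 0 counts in TWSD 2 and 3, against 8.1, 9.62, 20.8, 6.45 and 21.5 CPM in C 1, 2, 8, 11 and 12. Taking 3 counts over both TWSD libraries as the limit, it was at least 192-fold lower than the control mean (adjusted p = 0.00108). This limit covers counting error only. The zinc finger gene ZNF300, TCEANC and the lipid phosphatase gene PLPP6 likewise had 0 counts in both, and were at least 167-fold, 79.5-fold and 226-fold lower than the control mean. Their controls lay at 4.4 to 23.8, 3.45 to 6.89 and 3.08 to 35 CPM. RELA had counts in both: it was at 2.45 and 0.899 CPM in TWSD 2 and 3, against 55.4, 23.4, 28.6, 89.1 and 226 CPM in C 1, 2, 8, 11 and 12. Both TWSD libraries lay far below every control (log2 change -5.67 ± 0.83, adjusted p = 0.00229). They also lay below the 12.4 to 36.3 CPM of T and the 18.5 to 38.4 CPM of WSD, which makes them the 2 lowest of 25. CDKN1A, an inhibitor of the cell cycle kinases, was at 0.387 and 2.55 CPM in TWSD 2 and 3, against 54.5, 85.4, 563, 1436 and 4135 CPM in C 1, 2, 8, 11 and 12. The controls differed widely among themselves, with C 8, C 11 and C 12 the highest. The log2 change of -9.70 ± 1.97 (adjusted p = 0.0177) was -5.51 without those 3 (adjusted p = 0.0606). The remaining 4 of the 10 falls were the kinase genes TESK2 and PAK4, the death receptor gene TNFRSF10A and the folate enzyme gene ALDH1L1, each with both TWSD libraries below every control. TESK2 was at 0.193 and 2.19 CPM in TWSD 2 and 3, against 7.87 to 85 CPM in C. PAK4 was at 4.57 and 24.8 CPM in TWSD 2 and 3, against 84.9 to 235 CPM in C. ALDH1L1 was at 0 and 0.0359 CPM in TWSD 2 and 3, against 1.99 to 74.9 CPM in C. Over the whole set of 47, 10 genes had 0 counts in both TWSD libraries, against 584 of all genes tested. MOSPD2, RELA, ZNF300, TCEANC, PLPP6 and ALDH1L1 still passed without C 8, C 11 and C 12, while TESK2 and PAK4 had adjusted p of 0.091 and 0.0865.

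**Figure D2:**
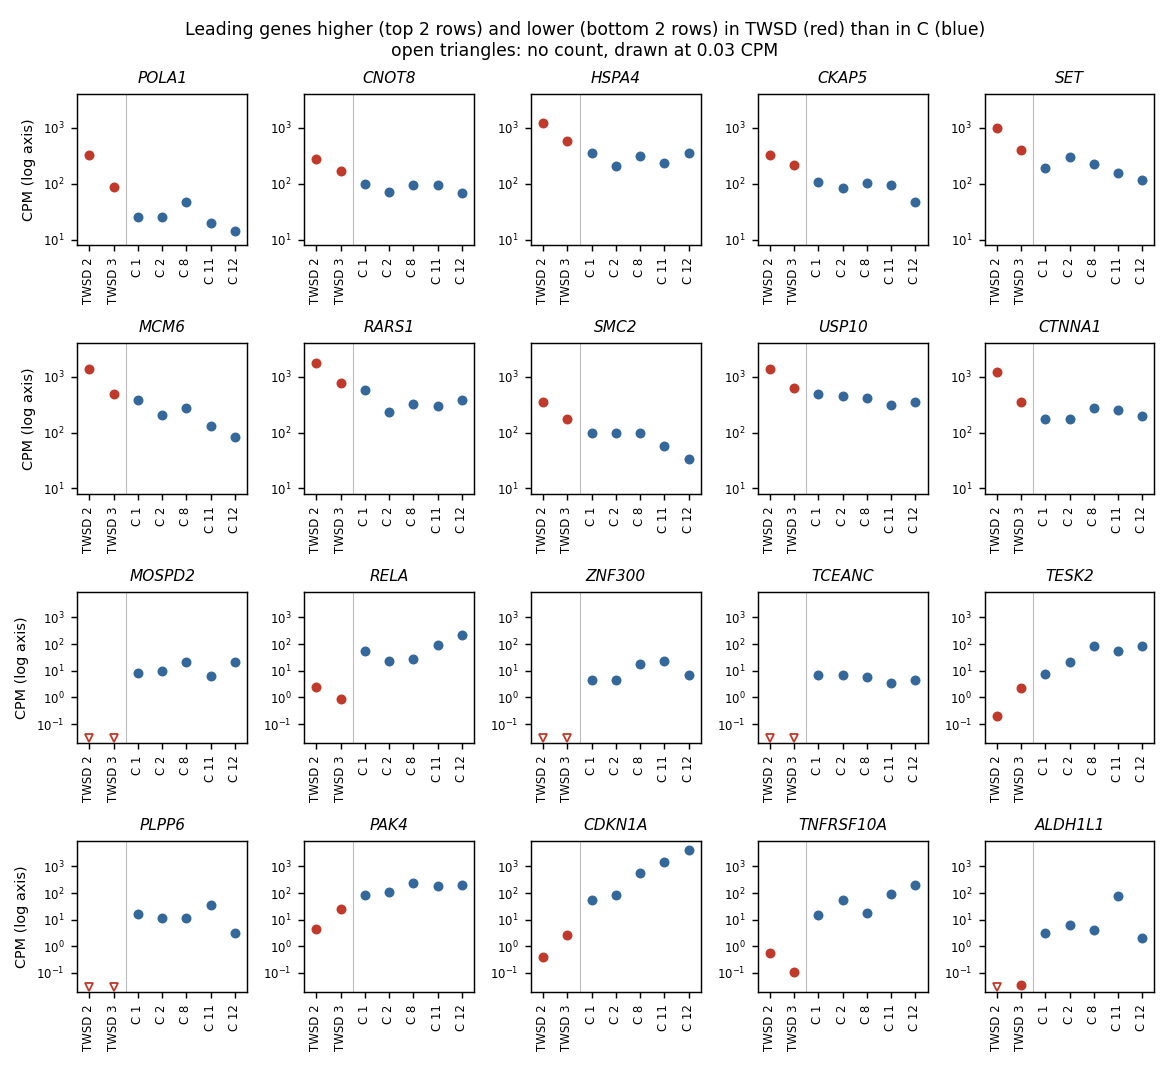
CPM on a log axis in each TWSD (red) and C (blue) library for the 10 rises (top 2 rows) and 10 falls (bottom 2 rows) with the smallest p, where an open triangle stands for no count. In each of the 20 genes both TWSD libraries lie outside the range of the 5 controls, and MOSPD2, ZNF300, TCEANC and PLPP6 have no count in either.

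Genes of the duplication of DNA were described by lists of known roles, read against the background of all genes. In the list of replication origin firing and the MCM helicase, 4 of 38 genes tested rose and none fell, and both TWSD libraries were above every control in 9 (23.7%, against 5.29% of all genes). Beside POLA1 and MCM6 the risers were MCM4, another helicase subunit, and MCM10, which helps to start the helicase. MCM4 was at 917 and 889 CPM in TWSD 2 and 3, against 233 to 489.9 CPM in C, and here both TWSD libraries were equally high (log2 change 1.16 ± 0.27, adjusted p = 0.0314). MCM10 was at 419 and 284 CPM in TWSD 2 and 3, against 20.01 to 173 CPM in C (adjusted p = 0.0383). The list's median log2 change was 0.81, against -0.38 for all genes (-0.37 with genes at 0 in both TWSD libraries set to their limit), and its median deviations were 1.00 in TWSD 2 and 0.96 in TWSD 3. Without C 8, C 11 and C 12 that median was 0.49, the median of all genes was -0.07, and MCM4 and MCM10 missed the threshold (adjusted p = 0.116 and 0.091). MCM2, MCM3, CDC6, PRIM1 and RFC3 lay above every control in both libraries without passing the test. The log2 change was positive in 29 of the 38 genes. The list's mean level was 6.32 and 6.91 log2 CPM in TWSD 2 and 3, against 6.62, 6.39, 6.35, 5.09 and 5.02 in C 1, 2, 8, 11 and 12. By this measure TWSD 2 lay below C 1, C 2 and C 8.

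Genes of mitosis and the spindle had the largest share above every control of the 42 lists. Of 40 tested, 4 rose (ANAPC1, CCNB1, CKAP5 and SMC2), none fell and 36 did not pass, but in 22 (55%) both TWSD libraries were above every control. ANAPC1, a scaffold of the anaphase-promoting complex, was at 362 and 172 CPM in TWSD 2 and 3, against 93.9, 49.4, 68, 17.1 and 32.3 CPM in C 1, 2, 8, 11 and 12 (log2 change 2.36 ± 0.48, adjusted p = 0.0177). CCNB1, the cyclin that drives entry into mitosis, was at 2100.4 and 889 CPM in TWSD 2 and 3, against 162 to 908 CPM in C, and TWSD 3 lay just under C 1 (adjusted p = 0.0324). TOP2A, which untangles chromosomes, was at 1018 and 852 CPM in TWSD 2 and 3, against 282, 389, 484, 261 and 9.09 CPM in C 1, 2, 8, 11 and 12, without overlap but short of the threshold (adjusted p = 0.106). The spindle protein gene TPX2 lay likewise, at 698 and 466 CPM in TWSD 2 and 3, against 38.3 to 334 CPM in C (adjusted p = 0.0536). The mitotic kinase gene AURKA was at 159 and 195 CPM in TWSD 2 and 3, against 34.2 to 144 CPM in C (adjusted p = 0.171). TOP2A, TPX2, AURKA and the 5 replication genes above were named after their values were seen, because both TWSD libraries lay outside the controls. The mean level of the 40 genes was 7.62 and 7.35 log2 CPM in TWSD 2 and 3, against 6.80, 6.91, 6.64, 5.96 and 3.98 in C 1, 2, 8, 11 and 12. C 12 was thus far below the other controls. The list's median log2 change of 1.25 was 0.61 without C 8, C 11 and C 12, where ANAPC1 and CCNB1 missed the threshold (adjusted p = 0.0975 and 0.148).

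The genes of DNA repair and nuclear transport that passed followed the same direction. Among 35 repair genes 4 rose and none fell, and both TWSD libraries were above every control in 11 (31.4%). PRKDC, the kinase of end joining, was at 357 and 303 CPM in TWSD 2 and 3, against 164, 81.9, 154, 130.5 and 48.7 CPM in C 1, 2, 8, 11 and 12, and both TWSD libraries were alike (log2 change 1.51 ± 0.32, adjusted p = 0.0182). Its partner XRCC5 was at 2518 and 1467 CPM in TWSD 2 and 3, against 742 to 1277 CPM in C (adjusted p = 0.0402). EXO1, a nuclease of mismatch repair, was at 293 and 161 CPM in TWSD 2 and 3, against 12.3 to 103 CPM in C (adjusted p = 0.0275). The double-strand break nuclease gene MRE11 was at 203 and 148 CPM in TWSD 2 and 3, against 27.7 to 131 CPM in C (adjusted p = 0.0427). Among 37 genes of the nuclear pore and import 5 rose (NUP160, RANBP2, NUP107, NUP93 and RAN), none fell, and 13 (35.1%) lay above every control in both libraries. NUP160 was at 438 and 256 CPM in TWSD 2 and 3, against 84 to 163 CPM in C (log2 change 1.44 ± 0.28, adjusted p = 0.0177). RANBP2, the large filament protein of the pore, was at 325 and 172 CPM in TWSD 2 and 3, against 27.7 to 108 CPM in C (adjusted p = 0.0177). RAN, the GTPase that gives transport its direction, shows the weaker TWSD 3: it was at 3408 CPM in TWSD 2 and 1221 CPM in TWSD 3, against 543 to 1216 CPM in C. Median log2 changes were 0.59 for repair and 0.66 for the pore list. Without C 8, C 11 and C 12 none of these 9 genes passed in edgeR. The adjusted p was then 0.056 for PRKDC, 0.137 for XRCC5 and EXO1, 0.222 for MRE11, and 0.0554 (RANBP2) to 0.165 (RAN) in the pore list. In that fit 14 repair and 16 pore genes had an unadjusted p under 0.05, against 2029 of all 13934 genes tested. With all controls the log2 change was positive in 23 of the 35 repair genes and 27 of the 37 pore genes. The mean level of the repair list was 5.54 and 6.29 log2 CPM in TWSD 2 and 3, against 6.17, 5.64, 6.02, 5.08 and 4.18 in C 1, 2, 8, 11 and 12. TWSD 2 thus lay below C 1, C 2 and C 8 there.

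Protein synthesis and folding genes rose where they passed, with no falls. Of 22 aminoacyl-tRNA synthetases tested (of 41 listed, the rest unmatched by symbol) 3 rose: RARS1, LARS1 and EPRS1. LARS1, the leucyl enzyme, was at 739.7 and 582 CPM in TWSD 2 and 3, against 323, 136, 236, 255 and 347 CPM in C 1, 2, 8, 11 and 12, high in both (log2 change 1.35 ± 0.28, adjusted p = 0.0177). EPRS1, which charges glutamate and proline tRNAs, was at 1530.3 and 667 CPM in TWSD 2 and 3, against 243 to 587 CPM in C (adjusted p = 0.0217). Among 22 cytosolic chaperones 3 rose, HSPA4 and the TRiC chaperonin subunits TCP1 and CCT8, and 6 (27.3%) lay above every control in both libraries. TCP1 was at 3254 and 966 CPM in TWSD 2 and 3, against 331 to 1012 CPM in C, so TWSD 3 was inside the control range (adjusted p = 0.0219). CCT8 was at 1640.4 and 588 CPM in TWSD 2 and 3, against 288 to 547 CPM in C (adjusted p = 0.0249). Among 34 chromatin modifiers 1 rose, the histone deacetylase gene HDAC1, at 601 and 430.3 CPM in TWSD 2 and 3, against 121 to 297 CPM in C. Among 30 cell junction genes 1 rose, CTNNA1. Among 26 genes of oxidative stress defence 1 rose, the peroxiredoxin gene PRDX2, at 904 and 233 CPM in TWSD 2 and 3, against 12 to 208 CPM in C. RPL7 rose among 68 ribosomal protein genes, at 795 and 355 CPM in TWSD 2 and 3, against 222 to 319 CPM in C, but processed copies of such genes can share reads. Without C 8, C 11 and C 12 the adjusted p was 0.0554 for LARS1, 0.107 for EPRS1, 0.127 for TCP1, 0.116 for CCT8, 0.129 for HDAC1, 0.091 for PRDX2 and 0.161 for RPL7. As a family the ribosomal protein genes split the libraries, with median deviations of 0.53 in TWSD 2 and -0.48 in TWSD 3. In the respiratory chain and the proteasome TWSD 2 lay above the controls and TWSD 3 near them, with no gene passing in edgeR. At an unadjusted p under 0.05 were 12, 10 and 17 genes of complex I, complexes II to V and the proteasome, and DESeq2 called 4, 4 and 6 higher. Complex I genes had a median deviation of 1.44 in TWSD 2 and -0.02 in TWSD 3, complexes II to V of 1.31 and 0.05, and the proteasome of 1.18 and -0.10.

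Genes of apoptosis and stress-induced arrest held 3 falls, more than any other of the 42 lists. Of 32 tested, 3 fell (CDKN1A, TNFRSF10A and TNFRSF10B), none rose and 29 did not pass. Both TWSD libraries were below every control in 10 of them (31.2%, against 6.74% of all genes). TNFRSF10A, a receptor for the death ligand TRAIL, was at 0.58 and 0.108 CPM in TWSD 2 and 3, against 14.4, 53, 17.4, 95.2 and 207 CPM in C 1, 2, 8, 11 and 12 (log2 change -7.86 ± 1.64, adjusted p = 0.0177). Its sister receptor TNFRSF10B was at 0.322 and 0.108 CPM in TWSD 2 and 3, against 4.11, 15.5, 10.4, 35.8 and 27.7 CPM in C 1, 2, 8, 11 and 12 (log2 change -6.45 ± 1.53, adjusted p = 0.0324). Both receptors were near 0 in both TWSD libraries and present in all 5 controls, C 1 and C 2 included. The other 7 genes below every control did not pass, MDM2, BBC3, BTG2, AEN, BCL2L1 and PHLDA3 among them. MDM2, a ubiquitin ligase, was at 49.9 and 31.2 CPM in TWSD 2 and 3, against 68.7 to 354 CPM in C. BBC3, a killer protein of the BCL2 family, was at 3.29 and 8.09 CPM in TWSD 2 and 3, against 16.2 to 261 CPM in C. The 6 were named after their values were seen, and BCL2L1 protects cells while most of the others are linked to arrest or death. The list's median log2 change of -1.55 was -0.85 without C 8, C 11 and C 12. TNFRSF10A, TNFRSF10B and CDKN1A then missed the threshold (adjusted p = 0.0554, 0.097 and 0.0606) with the same direction.

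RELA fell within a list of 25 inflammatory and NF-kB genes in which no other gene passed in edgeR (8 at an unadjusted p under 0.05, and 7 called lower by DESeq2). Its partner subunits did not share its pattern. NFKB1 was at 12.4 and 15.9 CPM in TWSD 2 and 3, against 0.705, 22.7, 32.3, 50.02 and 101 CPM in C 1, 2, 8, 11 and 12, and NFKB2 at 8.83 and 9.45 CPM in TWSD 2 and 3, against 5.62 to 10.3 CPM in C. RELB and REL were low in TWSD 2 alone, at 0.258 and 13.1 and 0.0644 and 7.01 CPM in TWSD 2 and 3, against 4.7 to 31.2 and 0.487 to 28.4 CPM in C. The inhibitor NFKBIA was at 62 and 22.1 CPM in TWSD 2 and 3, against 33.7 to 145 CPM in C, so TWSD 2 was inside and TWSD 3 below the control range. PTGS2, an inflammatory enzyme gene, had 0 counts in TWSD 2, TWSD 3, C 1 and C 2, and 58.8, 74.7 and 145 CPM in C 8, 11 and 12.

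**Figure D3:**
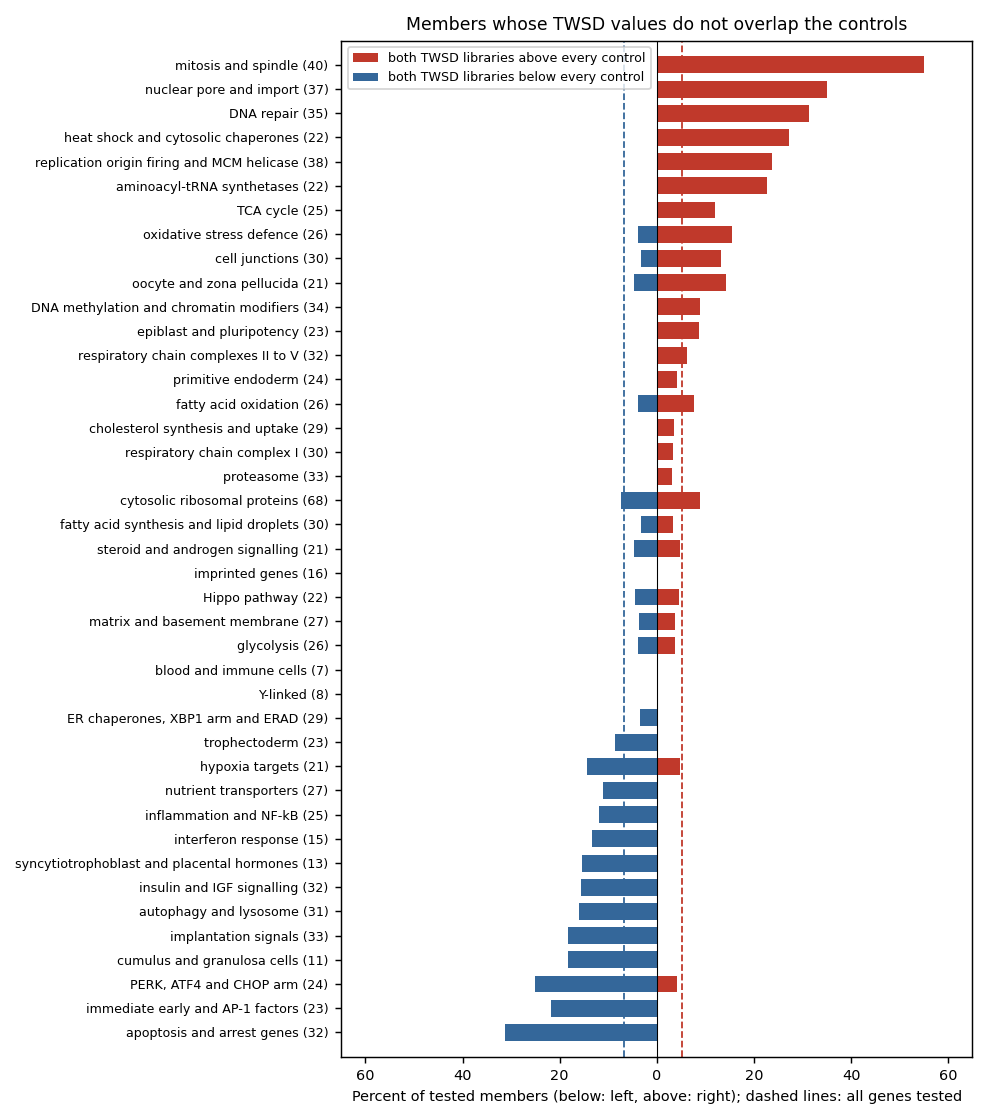
For each gene list (tested members in brackets) the bars give the percentage of members with both TWSD libraries above every control (red, right) or below every control (blue, left), and dashed lines give the same over all genes tested (5.29% and 6.74%). Mitosis and spindle genes reach 55% above, and apoptosis and arrest genes 31.2% below.

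In immediate early and stress genes the controls themselves were spread out, and TWSD 3 lay near C 1 and C 2. The mean level of 23 immediate early and AP-1 factors was 0.35 and 3.73 log2 CPM in TWSD 2 and 3, against 3.60, 3.55, 4.71, 4.90 and 6.08 in C 1, 2, 8, 11 and 12. Of these 23 genes 1 fell, JUNB, an AP-1 subunit, at 13.2 and 18.1 CPM in TWSD 2 and 3, against 38.5, 35.6, 350.4, 264 and 1143 CPM in C 1, 2, 8, 11 and 12 (log2 change -4.55 ± 1.06, adjusted p = 0.0305). Without C 8, C 11 and C 12 its log2 change was -1.23 (adjusted p = 0.346). In the PERK, ATF4 and CHOP arm of the unfolded protein response, 6 of 24 genes (25%, against 6.74% of all genes) lay below every control in both libraries. None passed in edgeR (15 at an unadjusted p under 0.05, and 12 called lower by DESeq2). DDIT3, which encodes CHOP, was at 41.2 and 24.9 CPM in TWSD 2 and 3, against 11, 21.9, 268, 302 and 8642 CPM in C 1, 2, 8, 11 and 12, so both TWSD libraries were above C 1 and C 2 (log2 change -5.81 ± 1.84, adjusted p = 0.0923). It passed without C 1 or C 2 (adjusted p = 0.0319 and 0.0464) and in DESeq2 (5.42e-05). HSPA5, the main chaperone of the endoplasmic reticulum, split the libraries with 12779 and 2074 CPM in TWSD 2 and 3, against 2459, 2649, 2226, 7467 and 25900.2 CPM in C 1, 2, 8, 11 and 12. The median of the PERK list was -2.78 with all controls and -0.11 without C 8, C 11 and C 12. Of 13 placental genes 0 passed in edgeR (9 at an unadjusted p under 0.05), but DESeq2 called 9 lower, CGA and ERVFRD-1 among them (adjusted p = 3.8e-05 and 0.00599). ERVFRD-1, a syncytin that fuses trophoblast, was at 4.7 and 6.69 CPM in TWSD 2 and 3, against 2.29, 0.195, 1449, 402 and 5493 CPM in C 1, 2, 8, 11 and 12. In bulk samples fewer cells of a type and less RNA per cell cannot be told apart.

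No gene of the 3 blastocyst lineages passed in edgeR. At an unadjusted p under 0.05 were 2 epiblast, 4 primitive endoderm and 5 trophectoderm genes. DESeq2 called 2 epiblast genes higher, and 2 primitive endoderm and 6 trophectoderm genes lower. POU5F1, the core pluripotency factor, was at 444 and 406 CPM in TWSD 2 and 3, against 1068, 525, 206, 8.51 and 0.627 CPM in C 1, 2, 8, 11 and 12. NANOG, its partner, was at 81 and 125 CPM in TWSD 2 and 3, against 62.8, 86, 33.3, 0.637 and 0.627 CPM in the same controls. Both TWSD libraries held clear epiblast signal, near C 1, C 2 and C 8 and far above C 11 and C 12. Of 23 epiblast genes 2 lay above every control in both libraries, FGF4 and ZFP42, named after their values were seen. That share, 8.7%, is near the 5.29% of all genes tested. FGF4, a growth factor made by the epiblast, was at 18.9 and 24.4 CPM in TWSD 2 and 3, against 0 to 9.36 CPM in C (adjusted p = 0.126). ZFP42 was at 55.7 and 36.4 CPM in TWSD 2 and 3, against 10.2 to 22.2 CPM in C (adjusted p = 0.1). Primitive endoderm separated the TWSD libraries, with median deviations of -3.59 in TWSD 2 and 1.64 in TWSD 3 over 24 genes. SOX17, a factor of this lineage, was at 0.193 and 99.1 CPM in TWSD 2 and 3, against 3.58, 105, 20.5, 331 and 0.104 CPM in C 1, 2, 8, 11 and 12. GATA4, another, was at 0.451 and 55.3 CPM in TWSD 2 and 3, against 0.117, 68.7, 21.2, 172 and 1.36 CPM in the same controls. In both genes TWSD 2 was low, as C 1 and C 12 were, and TWSD 3 was close to C 2. GATA6 was at 48.6 and 131 CPM in TWSD 2 and 3, against 513, 335, 62, 78.3 and 305 CPM in the same controls. PDGFRA, a growth factor receptor of the lineage, was at 56.2 and 128 CPM in TWSD 2 and 3, against 141, 143, 381, 87.6 and 385 CPM in the same controls (adjusted p = 0.138). PDGFRA passed in DESeq2 (adjusted p = 0.0374), and SOX17 and PDGFRA passed in edgeR without TWSD 3 (0.037 and 0.0382).

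Trophectoderm genes were present in both TWSD libraries at unequal levels. CDX2 was at 29.4 and 171 CPM in TWSD 2 and 3, against 122, 263, 149, 51.1 and 1.57 CPM in C 1, 2, 8, 11 and 12. GATA3 was at 104 and 249 CPM in TWSD 2 and 3, against 84.2, 366, 791, 332 and 395 CPM in the same controls. The keratin gene KRT18 was at 4328 and 4908 CPM in TWSD 2 and 3, against 967, 9522, 2558, 736 and 366 CPM in the same controls. KRT18 was high in both TWSD libraries but under C 2. Over 23 trophectoderm genes the median deviation was -1.61 in TWSD 2 and 0.01 in TWSD 3. Of 21 oocyte genes tested none passed in edgeR or DESeq2 (3 and 4 at an unadjusted p under 0.05). Above every control in both libraries were 3 (14.3%, against 5.29% of all genes): NLRP4, NLRP7 and WEE2, named after their values were seen. GDF9, an oocyte growth factor, was at 68.4 and 11.6 CPM in TWSD 2 and 3, against 13.5, 8.06, 0.763, 3.56 and 3.4 CPM in C 1, 2, 8, 11 and 12. The coat protein gene ZP3 was at 0.773 and 1.33 CPM in TWSD 2 and 3, against 11.5, 1.3, 0.254, 0 and 0.47 CPM in the same controls. Among 24 cumulus and granulosa genes 11 were tested and none passed in edgeR (6 at an unadjusted p under 0.05, and 5 called lower by DESeq2). The gonadotropin receptor gene FSHR had 0 counts in all 7 libraries and DCN had 0 and 0.0359 CPM in TWSD 2 and 3, against 715 CPM in C 11. Sperm (2 of 15 tested) and blood lists (7 of 16 matched genes tested) held no gene that passed in edgeR or DESeq2, and none at an unadjusted p under 0.05.

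**Figure D4:**
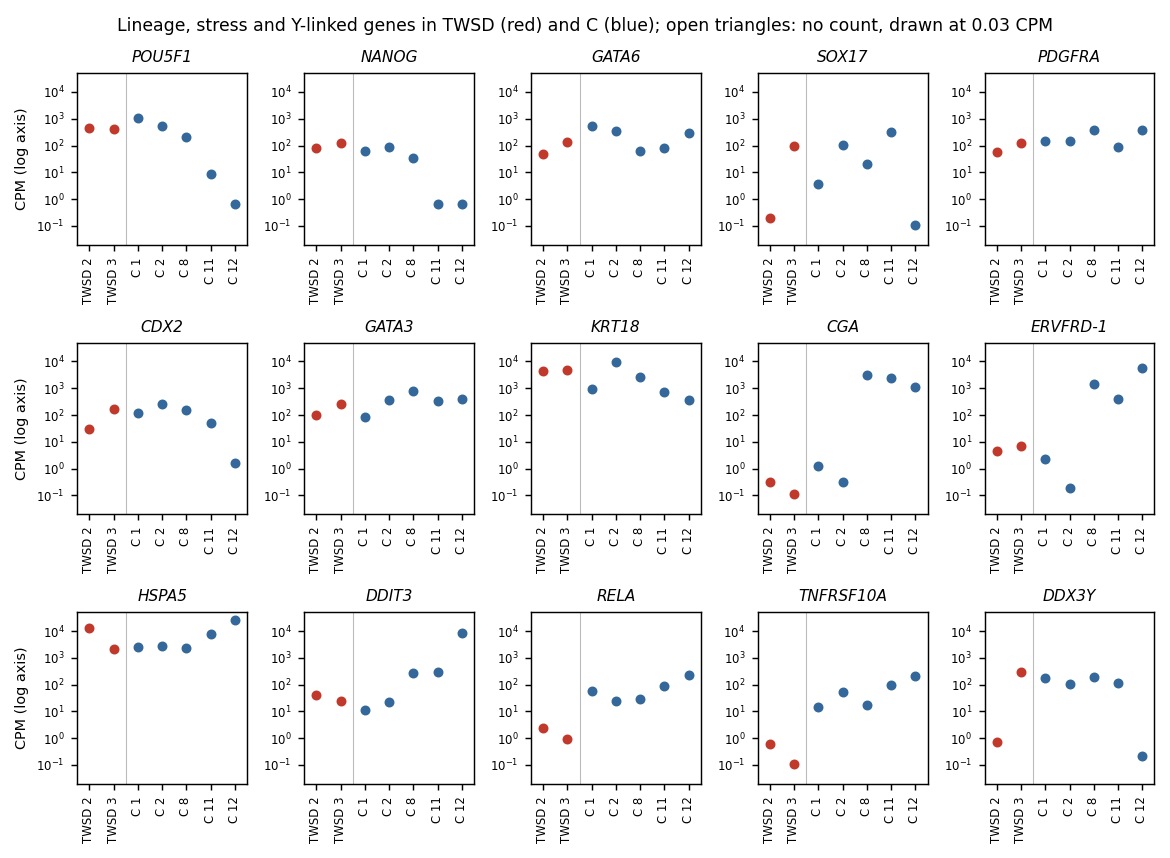
CPM on a log axis in each TWSD (red) and C (blue) library for genes of the epiblast, primitive endoderm, trophectoderm, placenta and stress, and for the Y-linked DDX3Y, where an open triangle stands for no count. SOX17 and DDX3Y part TWSD 2 from TWSD 3, CGA and ERVFRD-1 part C 8, C 11 and C 12 from the rest, and RELA and TNFRSF10A part both TWSD libraries from all 5 controls.

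The gene lists closest to the treatments themselves held no call in edgeR, which says nothing of related genes outside the lists. In insulin and IGF signalling 0 of 32 genes passed (8 at an unadjusted p under 0.05, and 7 called lower by DESeq2). Below every control in both libraries were 5 (15.6%, against 6.74% of all genes). INSR, the insulin receptor gene, was one of them, with 0 and 2.62 CPM in TWSD 2 and 3, against 11.1, 5.72, 9.41, 4.91 and 25.4 CPM in C 1, 2, 8, 11 and 12 (log2 change -3.08 ± 1.05, adjusted p = 0.11). INSR passed in DESeq2 (adjusted p = 0.0016) and in edgeR without TWSD 3 (0.000184). FOXO3, AKT2 and IRS2 were others of the 5, named after their values were seen. FOXO3, a transcription factor held back by insulin, was at 0.0644 and 9.63 CPM in TWSD 2 and 3, against 13.1 to 245 CPM in C. AKT2, a kinase of the pathway, was at 1.87 and 4.92 CPM in TWSD 2 and 3, against 6.71 to 25.2 CPM in C. IGF2, an imprinted growth factor, was at 0.322 and 0.611 CPM in TWSD 2 and 3, against 0.0587, 0.975, 118, 999.8 and 212 CPM in C 1, 2, 8, 11 and 12, and passed in DESeq2 alone (adjusted p = 0.00058). No gene of the lists of fatty acid synthesis, fatty acid oxidation and cholesterol passed in edgeR (6, 6 and 4 at an unadjusted p under 0.05, with 5, 4 and 1 called by DESeq2). PLIN2, the coat protein of lipid droplets, was at 742 and 212 CPM in TWSD 2 and 3, against 305, 384, 157, 339 and 486 CPM in C 1, 2, 8, 11 and 12, high in TWSD 2 and within the control range in TWSD 3. Fatty acid synthesis genes had median deviations of -0.39 in TWSD 2 and 0.59 in TWSD 3, and cholesterol genes of -0.69 and 0.56. The TCA cycle had 1.46 and 0.63. Fatty acid oxidation had 0.75 and 0.39, and glycolysis 0.57 and 0.59. The mean level of fatty acid oxidation genes, 4.65 and 4.92 log2 CPM in TWSD 2 and 3, was below the 5.17 to 5.37 of C 1, 2, 8 and 11 and above the 3.05 of C 12. The fitted median of glycolysis genes, 0.10, was -0.08 without C 12, while that of fatty acid oxidation genes, 0.22, was 0.33 there. None passed in edgeR among steroid and androgen signalling (21), implantation signals (33), imprinted genes (16) and autophagy and lysosome genes (31). At an unadjusted p under 0.05 were 5, 10, 3 and 8 of them, and DESeq2 called 4, 8, 3 and 7 lower.

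**Figure D5:**
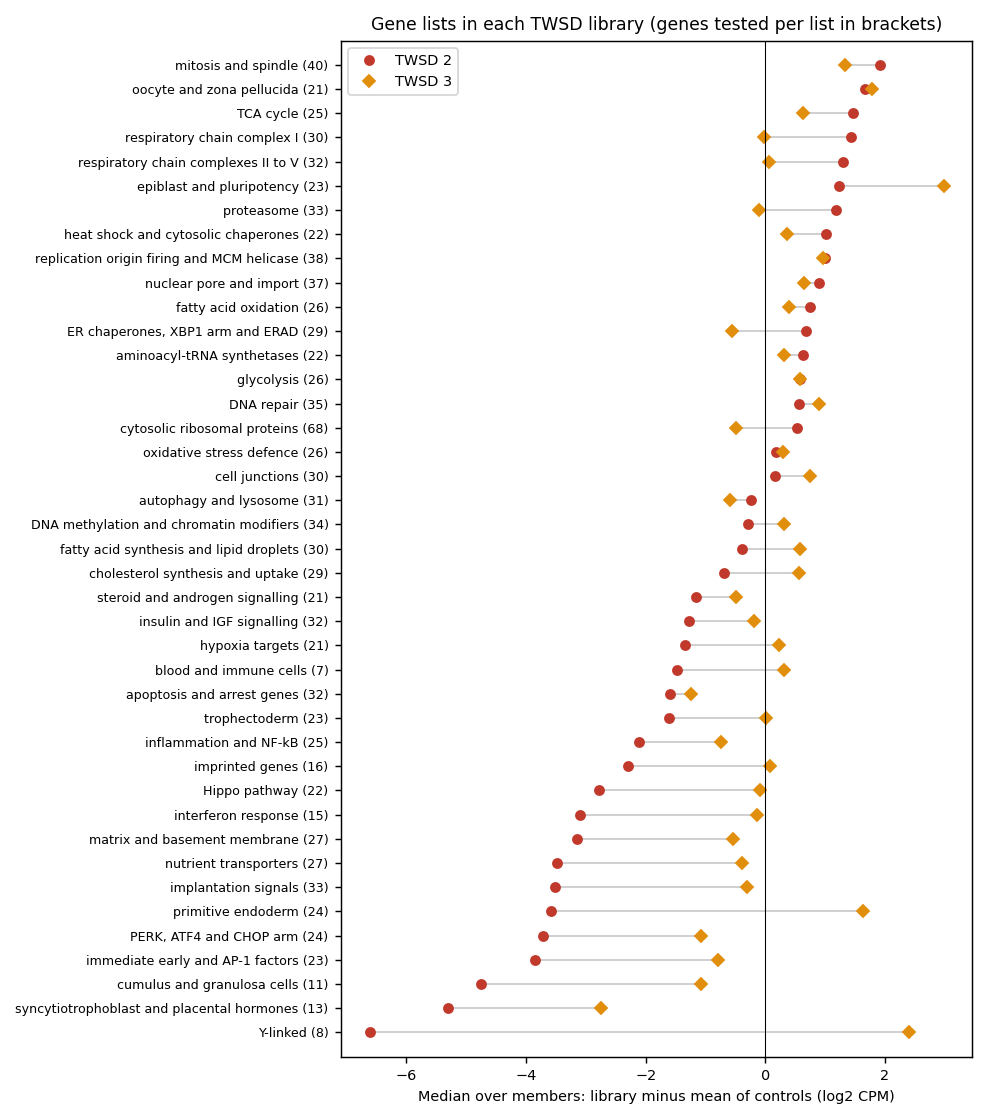
Median deviation of each gene list (tested members in brackets) from the mean of the controls, in log2 CPM, for TWSD 2 (red circles) and TWSD 3 (orange diamonds). Mitosis and spindle genes lie above 0 and apoptosis and arrest genes below 0 in both libraries, while primitive endoderm and Y-linked genes lie on opposite sides.

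Position against the embryos of single treatments was described from the same model, with TWSD set against the mean of T and WSD. Here 9 genes were higher (0.0646%) and 5 lower (0.0359%). Without TWSD 2 none passed (edgeR), and without TWSD 3, C 1 or C 12 the counts were 965 and 1737, 30 and 10, and 248 and 46. The 5 lower genes were MOSPD2, RELA, ZNF300, TCEANC and PLPP6, all among the 47 falls, and 8 of the 9 higher ones were among the 120 rises. CCSAP, a protein of centrioles and the spindle, was at 116 and 23.9 CPM in TWSD 2 and 3, against 7.25 to 24.5 CPM in T and 10.2 to 15.6 CPM in WSD (log2 change 2.34 ± 0.39, adjusted p = 0.00836). The C libraries held 9.45 to 21.2 CPM, and the TWSD 3 value was inside the range of T. STAMBP, a deubiquitinase of endosomes, was at 446 and 97.2 CPM in TWSD 2 and 3, against 48.1 to 114 CPM in T and 56.7 to 90.2 CPM in WSD (log2 change 1.76 ± 0.29, adjusted p = 0.00836). The C libraries held 76.9 to 120.0 CPM, and TWSD 3 was inside the range of both T and C. SET differed in both libraries, with 1003 and 405 CPM in TWSD 2 and 3, against 151 to 321 CPM in T and 171 to 325 CPM in WSD (adjusted p = 0.0145). CNOT8 did so too, with 281 and 166 CPM in TWSD 2 and 3, against 91.2 to 124 CPM in T and 82.9 to 126 CPM in WSD (adjusted p = 0.0375). POLA1 did not: its 334 and 87.1 CPM in TWSD 2 and 3 stand against 53.1 to 155 CPM in T and 51.9 to 162 CPM in WSD (adjusted p = 0.225), and TWSD 3 lay within both ranges. Across the 120 rises TWSD 3 lay within the range of the T and WSD libraries in 95 and TWSD 2 in 2. In the 47 falls TWSD 3 lay within that range in 9 and TWSD 2 in 5. In 35 of them (74.5%) both TWSD libraries were outside all 23 other libraries, against 25 of the 120 rises (20.8%) and 1.55% of all genes tested. The mean level of the mitosis list, 7.62 and 7.35 log2 CPM in TWSD 2 and 3, stands beside 6.54 to 7.39 in T libraries, 7.05 to 7.38 in WSD libraries and 3.98 to 6.91 in C. That of the apoptosis and arrest list, 2.81 and 3.47 log2 CPM in TWSD 2 and 3, stands beside 4.31 to 5.39 in T libraries, 4.18 to 4.98 in WSD libraries and 4.75 to 5.69 in C. Both TWSD libraries were the lowest of all.

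Deviations in TWSD 2 differed with the level of a gene over the whole range, and those in TWSD 3 mainly among the lowest genes. The genes tested were parted into 5 bins of equal size by their mean level over the 7 TWSD and C libraries, with bin 1 the lowest. The TWSD values enter this mean, so a trend over the bins is partly built in. Bin 5 held 84 of the 120 rises, and bin 2 held 20 of the 47 falls. In bins 1 to 5 both TWSD libraries lay above every control in 1.9, 2.73, 4.59, 7.79 and 9.44% of genes. They lay below every control in 7.71, 11.7, 7.43, 4.05 and 2.8%. Median deviations in bins 1 to 5 were -2.29, -3.16, -0.60, 0.31 and 0.61 in TWSD 2, and -1.12, 0.17, 0.14, 0.13 and 0.10 in TWSD 3. Of the 2787 genes in bin 1, 1366 had no count in TWSD 2 and 1077 none in TWSD 3. Over all genes tested 2055 had no count in TWSD 2 and 1230 none in TWSD 3, against 311 to 1412 in the controls. The part of this loss of low counts in the falls was not tested. RELA, CDKN1A and TNFRSF10A were called on these same libraries. They were at 0.899, 2.55 and 0.108 CPM in TWSD 3, against a lowest control value of 23.4, 54.5 and 14.4 CPM. Whether that loss had a part in these values was not tested.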

How the data were processed

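RNA of rhesus macaque blastocysts was sequenced in 25 libraries, 2 of them TWSD and 5 C. The authors deposited whole-number read counts per gene (35395 genes), not normalized. FastQC 0.11.8, Trimmomatic 0.39, STAR 2.7.0 and the genome build Mmul_10 are named in the submitters' processing notes. How reads were counted, with which annotation, strand setting and handling of duplicates, is not given in the sources used here, so reads of overlapping, antisense or near-identical genes cannot be told apart. A symbol was paired with 24173 gene identifiers. Genes reaching 1 CPM in 5 or more libraries were tested (13934, 12605 with a symbol). In the shallowest of the 7 libraries 1 CPM is 15.3 counts.

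Counts were fitted with edgeR 4.0.16 in R 4.3.3 (TMM factors, quasi-likelihood F-test with robust dispersions) over all 25 libraries with group as the only term, since 2 TWSD libraries give little spread of their own, with Benjamini-Hochberg adjustment of p over all genes tested. The biological coefficient of variation was 0.9. Levels are TMM-scaled CPM. A deviation is the log2 CPM (prior count 0.5) of a library minus the mean of the controls, and an error after ± is a standard error. Named genes are the 10 rises and 10 falls with the smallest p among genes with a symbol (histone, ribosomal protein and Y-linked genes skipped), a fixed set of lineage, stress and metabolic genes, up to 3 genes that passed per list, and 5 that also passed against the mean of T and WSD. A few genes are not reported here. Other named genes are list members that passed or were chosen after their values were seen. The genes and the 42 lists were chosen with earlier results of these data known. No library repeated another within TWSD or C (chi-square per gene at least 148). Alternatives were scaling by DESeq2 1.42.0 size factors or library totals, other filters, DESeq2, voom of limma 3.58.1 with quality weights, TWSD and C alone, and leaving out libraries.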

Additional observations from a re-analysis of the deposited data

Results flagged for a closer look

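In 59 comparisons of values within the 5 control libraries (the named genes and 3 library measures), the highest or lowest library was tested for its gap to the nearest other as a share of the whole range, with a limit of 0.71, and 8 passed. For values with a normal spread this limit flags about 1 in 20 groups by chance. CPM values can span a far wider range, as DDIT3 does in C, so the chance rate here is not known. C 12 was the far library for DDIT3 (0.966), HSPA5 (0.779), ERVFRD-1 (0.736) and JUNB (0.716). C 11 was far for ALDH1L1 (0.937) and IGF2 (0.788), C 1 for ZP3 (0.887) and C 2 for KRT18 (0.761). JUNB and ALDH1L1 are among the genes called lower in TWSD, and each kept its call when its far control was left out. The 2 TWSD libraries are too few for this check.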

How the results depend on the processing

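Counts of calls depended on the model and on single libraries. Under 14 of 15 settings each of the 120 higher genes kept its sign (116 of 120 without TWSD 2), and under all 15 each of the 47 lower ones did. These genes were called on the same libraries, so kept signs are largely built in and are no separate support. Genes higher in TWSD against C numbered 60 with library totals, 72 and 20 (lower) without a filter, 427 and 1568 with DESeq2, 0 and 0 with limma voom (437 genes at an unadjusted p under 0.05) and with TWSD and C alone (885), and 10 and 8 without C 8, C 11 and C 12. Leaving out 1 library gave 0 to 897 higher and 0 to 1887 lower genes, with the lowest counts without TWSD 2 and the highest without TWSD 3. A lone TWSD library is assumed to vary like the other groups. Against the mean of T and WSD 1 gene was higher with library totals, 157 and 518 (lower) passed with DESeq2 and 400 and 89 without C 8, C 11 and C 12, and leaving out 1 library gave 0 to 965 higher and 0 to 1737 lower. Genes with every TWSD library above or below every control numbered 1924 and 2633 without C 8, C 11 and C 12, and 876 to 2895 and 1072 to 3729 with 1 library left out, where fewer libraries overlap less by construction. The median change of all genes was -0.48 with DESeq2 size factors, -1.08 without TWSD 3 and -0.07 without C 8, C 11 and C 12.

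Among named genes, 39 passed, and all 39 missed the threshold without TWSD 2, with voom and with TWSD and C alone, 31 without C 8, C 11 and C 12, 10 with library totals, 10 without a filter, 9 without C 11, 5 with DESeq2 size factors, 4 with a filter of 1 CPM in 2 libraries and 3 without C 8, and none changed sign. Of the 17 named genes that had not passed, 6 passed with DESeq2 (PDGFRA, CGA, ERVFRD-1, DDIT3, IGF2 and INSR), 3 without TWSD 3 (SOX17, PDGFRA and INSR) and DDIT3 without C 1 or C 2. Changes of sign came only from named genes that had not passed, and the cause was not tested. HSPA5 (-0.13) was at 0.46 with voom, at 1.54 without C 8, C 11 and C 12, and at -1.97 to 0.99 with 1 library left out. Without those 3 controls POU5F1 (0.23) was at -0.89, KRT18 (0.71) at -0.18, ERVFRD-1 (-8.01) at 2.21 and DDIT3 (-5.81) at 1.01. With 1 library left out POU5F1 ran from -0.084 to 1.20 (below 0 without C 11 or C 12), SOX17 (-0.89) from -8.85 to 0.63 (above 0 without TWSD 2 or C 11), CDX2 (-0.23) from -1.99 to 0.57 (above 0 without TWSD 2 or C 2), ZP3 (-1.35) from -1.80 to 1.06 (above 0 without C 1, and 0.62 with voom) and PLIN2 (0.51) from -0.64 (without TWSD 2) to 1.15. No paired analysis was possible because TWSD and C share only the replicate number 2. Genes near 1 CPM carry few counts, 15.3 in the shallowest library, and a 0 in TWSD shows only that a gene was not detectable at this depth.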
